A study of Zea mays with 6 samples.

Results

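The transcripts of jasmonate synthesis and signalling were followed in the root tips of maize (Zea mays, cultivar Chang 7-2) with and without salt. They were taken from the deposited table as those whose KEGG Orthology annotation holds the entry for lipoxygenase (K00454), allene oxide synthase (K01723), allene oxide cyclase (K10525), OPDA reductase (K05894), the receptor COI1 (K13463), the JAZ repressors (K13464) or the transcription factor MYC2 (K13422). These were 138 transcripts of 124 genes, among 48312 transcripts of 43006 genes in all. RNA came from the primary root (PR), the crown root (CR) and the seminal root (SR), kept for 24 h in nutrient solution with 100 mM NaCl (PR-salt, CR-salt and SR-salt) or with 0 mM NaCl (PR, CR and SR). The last 1 cm of about 10 to 15 roots from as many seedlings was taken per root type. The labels mention 3 biological replicates, but each condition has only 1 of the 6 libraries, and whether a library pools replicates is not given in the sources used here, so no value has a replicate error. Treatment began at 3 days after germination for PR, at 7 for SR and at 15 for CR, and the effects of root type and plant age cannot be told apart. All plants were wild-type seedlings of 1 cultivar, and their reads were aligned to the genome of another cultivar, B73.

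Jasmonates are made from linolenic acid of the plastid membranes. A 13-lipoxygenase adds oxygen, allene oxide synthase and allene oxide cyclase close the ring of 12-oxo-phytodienoic acid (OPDA), OPDA reductase reduces it in the peroxisome, and beta-oxidation shortens the chain to jasmonic acid. Its isoleucine conjugate binds the F-box protein COI1 together with a JAZ protein. The JAZ protein is then degraded, which frees MYC2, a basic helix-loop-helix (bHLH) factor, to act on its target genes. In plants the pathway is best known from wounding and defence, and applied jasmonate slows root growth.

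The annotation fitted some of these steps closely and others loosely. The lipoxygenase entry held 15 transcripts of 11 genes, allene oxide synthase 6 of 6, allene oxide cyclase 4 of 3, OPDA reductase 12 of 10, COI1 9 of 8, JAZ 39 of 37 and MYC2 53 of 49. The alignment score behind each annotation (in bits, higher meaning closer) was at least 200 in 60 of the 138 transcripts and under 100 in 56. In the MYC2 entry it was at least 200 in 3 of 53 and under 100 in 48. Most transcripts listed there thus have only a distant likeness to MYC2. The JAZ entry had 18 of 39 at 200 bits or more and 8 under 100. In the table of gene names 86 of the 138 transcripts were found by identifier, and a gene without a name is given by its identifier.

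The median library held 2549512 reads counted on transcripts, and the totals ran from 2.24% below to 4.47% above it. The jasmonate transcripts took 6301 to 7980 of them, or 0.248% to 0.315%. A transcript was read against its exact 95% counting interval, which covers counting error only. At this depth 63 of the 138 reached 10 reads in some library (7 lipoxygenase, 5 allene oxide synthase, 3 allene oxide cyclase, 7 OPDA reductase, 5 COI1, 12 JAZ and 24 MYC2 transcripts), 75 stayed under 10 reads in all libraries, and 48 of these had at most 3 reads in any of them. Cyclins of dividing cells were present in all libraries, with a summed RPKM (reads per kb of transcript, scaled to the counted reads of the library) of 74.9 to 92.3 for cyclin A and of 47.3 to 91.5 for cyclin B. Nicotianamine synthase, taken as a marker of grass roots, had a summed RPKM of 18.9 in PR-salt and 24.3 in PR, against 1981 to 6004 in the CR and SR libraries. Of the shoot markers, LHCB1 summed to 28.0 to 112 RPKM, LHCA1 to 0 to 2.14 and the small subunit of Rubisco to at most 6.16, and no transcript carried the LHCB2 entry.

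The lipoxygenase step varied most between libraries, though its entry is not limited to lipoxygenases of the jasmonate branch. Its summed RPKM was 384 in PR-salt and 339 in PR, 561 in CR-salt and 395 in CR, and 282 in SR-salt and 280 in SR, so the highest library stood at 2.00 times the lowest. The summed reads gave a log2 ratio of salt-treated to untreated library of 0.50 in CR (interval 0.43 to 0.57), 0.16 in PR (0.07 to 0.24) and -0.02 in SR (-0.12 to 0.07). Allene oxide synthase, which commits the lipid hydroperoxide to the jasmonate branch, summed to 196 in PR-salt and 249 in PR, 238 in CR-salt and 277 in CR, and 235 in SR-salt and 213 in SR. Its summed reads had a log2 ratio of -0.35 in PR (interval -0.49 to -0.20), -0.19 in CR (-0.32 to -0.06) and 0.15 in SR (0.01 to 0.30). The 2 steps that follow it stayed lower, with allene oxide cyclase between 102 and 129 RPKM and OPDA reductase between 88.4 and 126. Of their log2 ratios, that of the cyclase in CR (-0.31, interval -0.60 to -0.03) and that of the reductase in PR (-0.26, -0.48 to -0.04) had intervals below 0, and the others held 0.

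On the side of perception, the COI1 entry summed to 320 RPKM in PR-salt and 294 in PR, 308 in CR-salt and 362 in CR, and 362 in SR-salt and 403 in SR. The log2 ratio of its summed reads was -0.24 in CR (interval -0.35 to -0.12), -0.20 in SR (-0.31 to -0.09) and 0.09 in PR (-0.03 to 0.21). Of these sums, 115 RPKM in PR to 160 in SR came from GRMZM2G035314, a more distant hit to COI1. The JAZ entry summed to 325 in PR-salt and 400 in PR, 295 in CR-salt and 309 in CR, and 239 in SR-salt and 312 in SR. Its summed reads had a log2 ratio of -0.27 in PR (interval -0.43 to -0.11), -0.09 in CR (-0.27 to 0.10) and -0.32 in SR (-0.52 to -0.12). The MYC2 entry varied least, between 487 and 546 RPKM, with the highest library at 1.12 times the lowest. Its summed reads nevertheless had log2 ratios of -0.17 in PR (interval -0.27 to -0.06) and -0.15 in SR (-0.25 to -0.05), and of -0.04 in CR (-0.14 to 0.07). These sums carry no test, and a few abundant transcripts make up most of each of them.

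**Figure D1:**
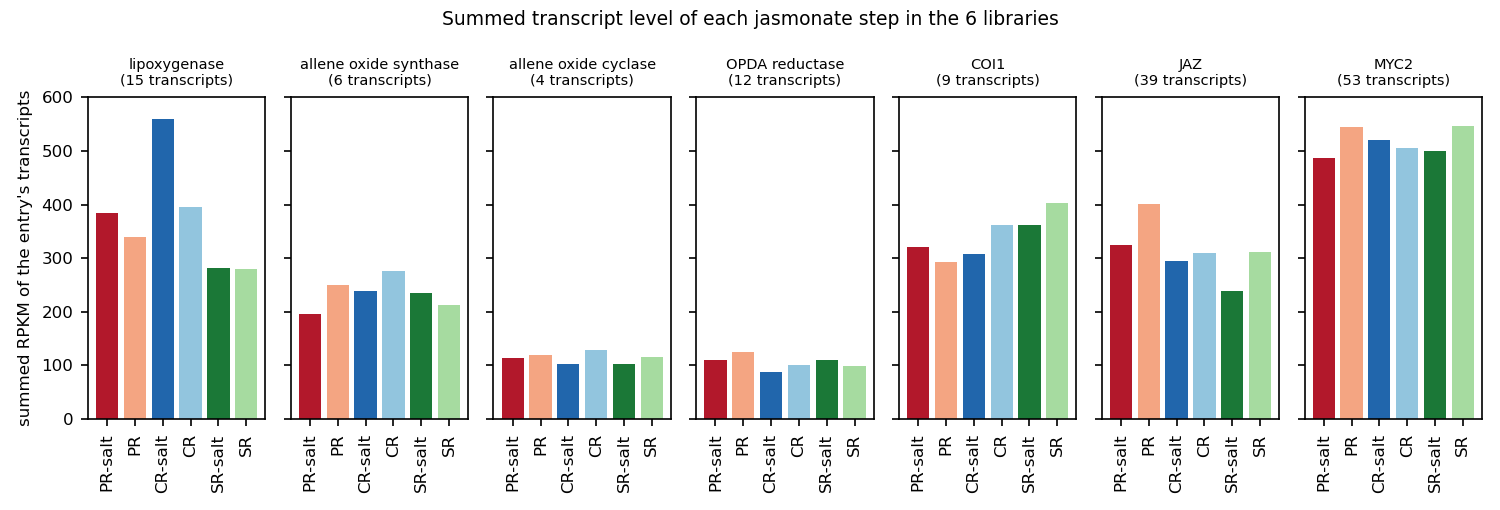
Summed transcript level of each jasmonate step, with the library on the x axis and the summed RPKM of the entry's transcripts on the y axis, on 1 scale for all panels and starting at 0. A bar is 1 library, with no error bar since each condition has 1. The lipoxygenase panel spans 280 to 561 RPKM and stands highest in CR-salt, while the MYC2 panel spans only 487 to 546.

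Salt moved no jasmonate transcript past the thresholds of the study in any root type. DTGs were called with the test of Audic and Claverie on the reads of a pair of libraries, where the FDR had to be no more than 0.001 and the RPKM ratio at least 1 on the log2 scale, either way. Of the members read in the PR pair 0 of 118 were called (0.519% of all transcripts), of those in the CR pair 0 of 108 (0.369%) and of those in the SR pair 0 of 117 (0.392%), so a count of 0 lies near the background. Fisher's exact test on the same reads also called 0 members in each root type, and so did an edgeR exact test with an assumed coefficient of variation of 0.1. These tests compare single libraries, not conditions.

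The ratios of the well counted transcripts were small. Among members with at least 20 reads in the pair, the log2 ratio lay within 1 of 0 for 49 of 50 in the PR pair, 48 of 48 in the CR pair and 46 of 47 in the SR pair. The median was -0.21 in PR, -0.11 in CR and -0.071 in SR, beside 0.033, 0.023 and 0.025 over all transcripts with as many reads. The counting interval lay above 0 for 4 members and below 0 for 6 of 50 in PR (8.42% and 7.89% of all transcripts), for 7 and 8 of 48 in CR (8.65% and 7.38%), and for 2 and 8 of 47 in SR (8.86% and 8.54%). The members below 0 were thus a larger share than among all transcripts in each root type (12.0% in PR, 16.7% in CR and 17.0% of those in SR). Those above 0 were also a larger share in CR (14.6%), but not in PR (8%) or SR (4.26%), and the differences were not tested.

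Direction was shared between root types more often downwards than upwards. Of the 44 members with at least 20 reads in each pair, 13 had a lower reading in all 3 salt-treated libraries and 5 a higher one, where 14.7% and 20.7% of all transcripts did so. The 13 comprised 8 transcripts of the MYC2 entry, 2 of JAZ, and 1 each of lipoxygenase, allene oxide cyclase and COI1. The 5 comprised 3 transcripts of the lipoxygenase entry and 2 of MYC2. The counting interval lay below 0 in all root types for 2 members, MYC2a and bHLH94, and above 0 in all of them for 1, a transcript of lox1 (1.12% and 1.09% of all transcripts).

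**Figure D2:**
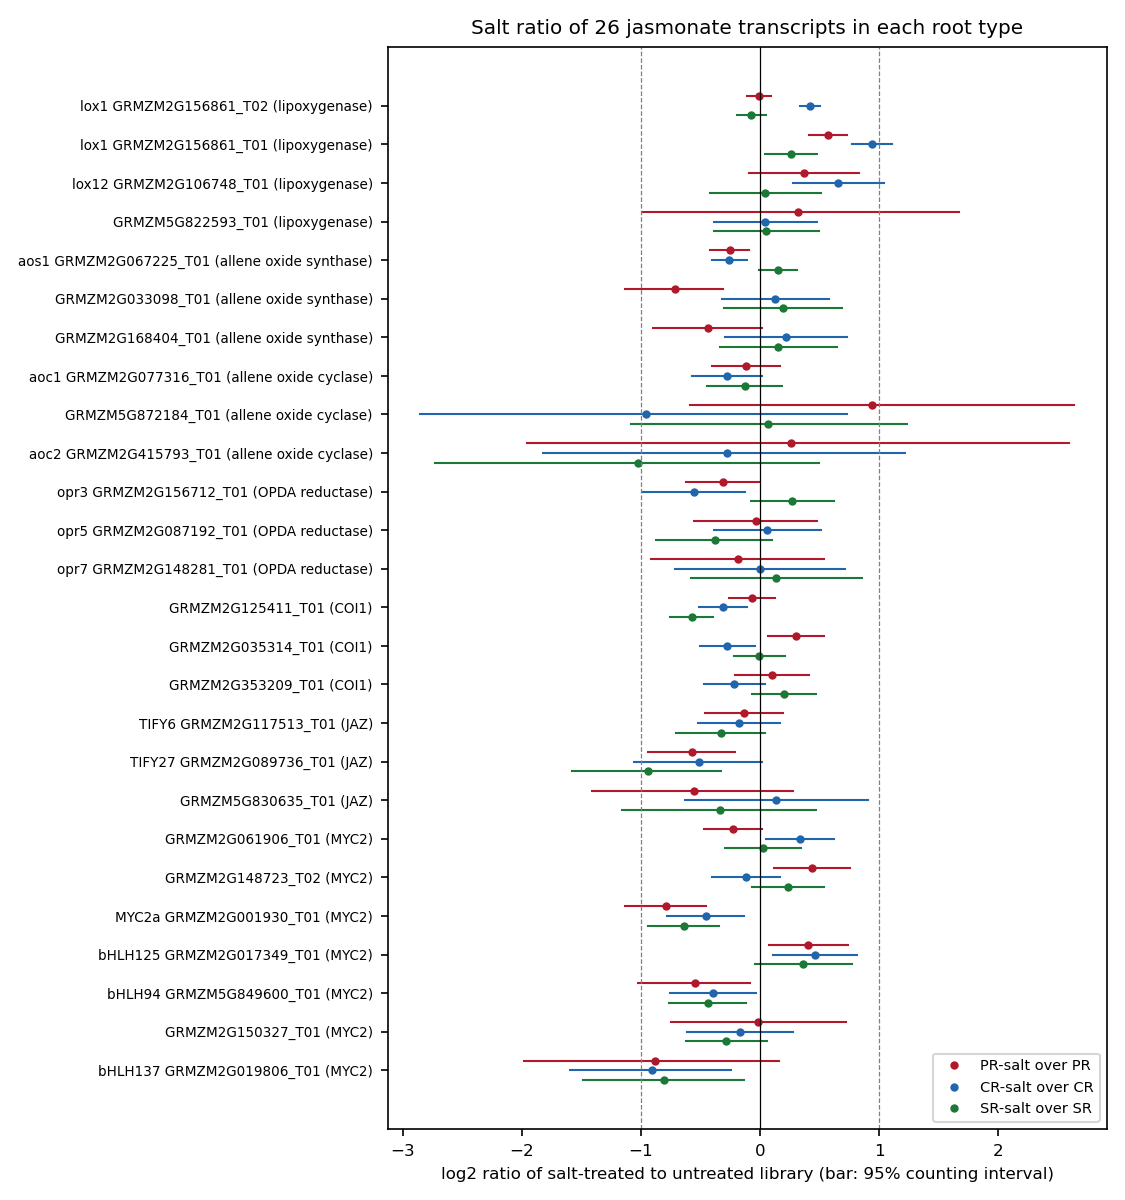
Log2 ratio of the salt-treated to the untreated library (x axis) for the named jasmonate transcripts (y axis, by step), with PR in red, CR in blue and SR in green. A point is 1 pair of libraries and a bar its exact 95% counting interval, and the dashed lines mark a log2 ratio of 1 either way. MYC2a lies below 0 in all root types (-0.79, -0.45 and -0.64), GRMZM2G156861_T01 of lox1 above 0 in all (0.57, 0.94 and 0.26), and the wide bars belong to transcripts with few reads, such as the cyclases.

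The lipoxygenase entry was led by the transcripts of GRMZM2G156861, named lox1. Since the entry is not limited to the jasmonate branch, whether these transcripts serve that branch was not tested. Transcript T02 of this gene had 1582 reads in PR-salt and 1530 in PR, 2481 in CR-salt and 1913 in CR, and 1147 in SR-salt and 1182 in SR. The salt-treated library was higher in CR, with a log2 ratio of 0.42 (interval 0.33 to 0.51), against -0.01 in PR (-0.11 to 0.09) and -0.07 in SR (-0.19 to 0.05). Transcript T01 of the same gene had 815 reads in PR-salt and 527 in PR, 806 in CR-salt and 433 in CR, and 389 in SR-salt and 318 in SR. Here the salt-treated library was the higher one in all root types, with log2 ratios of 0.57 in PR (interval 0.41 to 0.73), 0.94 in CR (0.77 to 1.11) and 0.26 in SR (0.05 to 0.48). Within the lipoxygenase entry the ratio of T01 in CR was the largest among transcripts with at least 20 reads, at an FDR of 2.3e-26 in the 2-library test.

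Whether the transcripts of lox1 can be told apart is uncertain. The best annotation hit of T01 is lox1 and that of T02 is lox2, and only uniquely aligned reads were counted. In every library these reads covered 19.5% to 19.6% of T01 and 78.5% to 78.8% of T02, so the reads of T01 come from a small stretch of it. With the reads of both summed, the log2 ratio of the gene was 0.53 in CR, 0.16 in PR and 0.0062 in SR.

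The other lipoxygenases were read far less. The transcript of lox12, a gene known in maize as a 9-lipoxygenase and so outside the jasmonate branch, had 94 reads in PR-salt and 70 in PR, 148 in CR-salt and 97 in CR, and 81 in SR-salt and 77 in SR, with an interval above 0 in CR alone (log2 ratio 0.65, 0.28 to 1.04). The tasselseed gene ts1 (LOX8), a plastid 13-lipoxygenase known to supply jasmonate in the developing tassel, and lox11 lay outside the naming rule and were chosen after their values were seen. The reads of ts1 were 24 in PR-salt and 28 in PR, 27 in CR-salt and 20 in CR, and 21 in SR-salt and 26 in SR, with all intervals across 0. Those of lox11 were 40 in PR-salt and 47 in PR, 46 in CR-salt and 68 in CR, and 47 in SR-salt and 82 in SR, where the log2 ratio of -0.83 (interval -1.38 to -0.30) had an FDR of 0.0498.

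In the allene oxide synthase step aos1 made up most of the reads, with 584 reads in PR-salt and 669 in PR, 708 in CR-salt and 873 in CR, and 687 in SR-salt and 606 in SR. Its log2 ratio was -0.25 in PR (interval -0.42 to -0.09), -0.26 in CR (-0.40 to -0.11) and 0.15 in SR (-0.01 to 0.31). The next gene, GRMZM2G033098, had 83 reads in PR-salt and 131 in PR, 89 in CR-salt and 84 in CR, and 77 in SR-salt and 66 in SR. It was lower under salt in PR alone, with a log2 ratio of -0.72 (interval -1.13 to -0.31). For GRMZM2G168404 the log2 ratio of -0.44 in PR (interval -0.90 to 0.02) did not exclude 0, and CR and SR gave 0.22 and 0.15, both with intervals across 0.

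The allene oxide cyclase step rested on aoc1, whose reads were 202 in PR-salt and 210 in PR, 173 in CR-salt and 216 in CR, and 166 in SR-salt and 178 in SR. The intervals of its log2 ratios, -0.11 in PR, -0.28 in CR and -0.13 in SR, all held 0. aoc2 and GRMZM5G872184 had 4 to 15 reads per library, too few to show a difference at this depth.

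The most abundant OPDA reductase, opr3, had 162 reads in PR-salt and 193 in PR, 76 in CR-salt and 115 in CR, and 154 in SR-salt and 125 in SR. Its interval lay below 0 in CR (log2 ratio -0.55, -0.99 to -0.12), and in SR the point lay above 0 (0.27, -0.08 to 0.63). This maize gene is not the counterpart of the Arabidopsis OPR3 that reduces OPDA for jasmonate synthesis, a role that opr7 and opr8 hold in maize. For opr7 the reads were 33 in PR-salt and 36 in PR, 35 in CR-salt and 36 in CR, and 37 in SR-salt and 33 in SR, a nearly flat series. opr8, chosen after its values were seen, had 22 reads in PR-salt and 26 in PR, 43 in CR-salt and 45 in CR, and 34 in SR-salt and 26 in SR. For opr5 they were 65 to 87, and the intervals of opr5, opr7 and opr8 all held 0. opr1, also chosen after its values were seen, had 17 reads in SR-salt against 2 in SR (log2 ratio 3.06, interval 0.98 to 6.22, FDR 0.021), 20 in PR-salt and 24 in PR, and 4 in CR-salt and 4 in CR. Reads of near-identical copies, such as opr1 and opr2 or opr7 and opr8, may be divided between them or lost in unique alignment.

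The closest hit to the COI1 receptor, GRMZM2G125411, had 440 reads in PR-salt and 443 in PR, 373 in CR-salt and 477 in CR, and 441 in SR-salt and 644 in SR. SR stood above the other libraries, and the log2 ratio was -0.57 in SR (interval -0.75 to -0.40, FDR 1.8e-08), -0.31 in CR (-0.51 to -0.11) and -0.07 in PR (-0.26 to 0.13). GRMZM2G353209, nearly as close by its score (1162 bits against 1171), had intervals across 0 in all root types. GRMZM2G035314, whose score was 382 bits, had 345 reads in PR-salt and 268 in PR, 288 in CR-salt and 359 in CR, and 369 in SR-salt and 363 in SR, so that its interval lay above 0 in PR (log2 ratio 0.31, 0.07 to 0.54) and below 0 in CR (-0.27, -0.50 to -0.05).

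Of the 39 transcripts of the JAZ entry 12 reached 10 reads in a library. TIFY27 (GRMZM2G089736) had an RPKM of 58.8 in PR-salt and 87.4 in PR, 28.7 in CR-salt and 40.9 in CR, and 19.6 in SR-salt and 37.7 in SR. The salt-treated library was the lower one of each pair, with log2 ratios of -0.57 in PR (interval -0.94 to -0.21), -0.51 in CR (-1.05 to 0.02) and -0.94 in SR (-1.58 to -0.33). GRMZM2G117513 (TIFY6 and TIFY7) had an RPKM of 64.2 to 91.1, and its log2 ratios of -0.13, -0.18 and -0.33 in PR, CR and SR all had intervals across 0. GRMZM5G830635, with an annotation score of only 65.1 bits, had 22 to 32 reads and intervals across 0. The median log2 ratio of the JAZ members with at least 20 reads was -0.41 in PR (11 members), -0.20 in CR (10) and -0.31 in SR (8).

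MYC2a (GRMZM2G001930) had the highest score of the MYC2 entry (962 bits) and 118 reads in PR-salt against 196 in PR, 140 in CR-salt against 198 in CR, and 156 in SR-salt against 238 in SR. All 3 salt-treated libraries lay below all 3 untreated ones. The log2 ratio was -0.79 in PR (interval -1.13 to -0.45), -0.45 in CR (-0.78 to -0.14) and -0.64 in SR (-0.94 to -0.34). The next closest hit to MYC2, GRMZM2G049229 (833 bits), was chosen after its values were seen. It had 41 reads in PR-salt and 51 in PR, 35 in CR-salt and 40 in CR, and 30 in SR-salt and 68 in SR, with an interval below 0 in SR alone (log2 ratio -1.21, -1.88 to -0.57, FDR 0.0048).

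Other members of the entry went either way. bHLH94 (GRMZM5G849600) was lower in each salt-treated library, with log2 ratios of -0.55 in PR (interval -1.02 to -0.08), -0.39 in CR (-0.76 to -0.03) and -0.44 in SR (-0.76 to -0.11). bHLH137 (GRMZM2G019806) had log2 ratios of -0.88, -0.91 and -0.80 in PR, CR and SR on 13 to 58 reads, and the interval in PR held 0. bHLH125 (GRMZM2G017349), in contrast, had 181 reads in PR-salt and 131 in PR, 159 in CR-salt and 119 in CR, and 118 in SR-salt and 90 in SR, with log2 ratios of 0.41 (interval 0.08 to 0.74), 0.46 (0.11 to 0.82) and 0.36 (-0.05 to 0.77). Its score was 55.1 bits, and another entry ranked above MYC2 in its annotation. GRMZM2G061906, the most abundant transcript of the entry, had an interval above 0 in CR alone (log2 ratio 0.33, 0.05 to 0.62), and GRMZM2G148723_T02 in PR alone (0.44, 0.12 to 0.76).

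The average salt effect was tested over the root types with the quasi-likelihood test of edgeR, in which the 3 salt-treated and the 3 untreated libraries serve as repeats of each other with root type as a covariate. This fit uses the same reads as the pairs above. The fit took transcripts that reached 10 reads in 3 or more libraries, which 49 of the 138 members did (6 lipoxygenase, 3 allene oxide synthase, 2 allene oxide cyclase, 5 OPDA reductase, 5 COI1, 10 JAZ and 18 MYC2). At an FDR of at most 0.05, 1 member fell and 0 rose, beside 0.488% lower and 0.125% higher over the 18444 transcripts tested. The member was MYC2a, which fell by 0.66 on the log2 scale (SE 0.12, FDR 0.032, lower in 3 of 3 root types). Nicotianamine synthase also had a lower summed RPKM in each salt-treated library (18.9 in PR-salt and 24.3 in PR, 3317 in CR-salt and 6004 in CR, and 1981 in SR-salt and 2709 in SR), and its part in the result was not tested. DESeq2 called 0 members, and its adjusted p for MYC2a was 0.404. In edgeR, FDR values for MYC2a ranged from 0.00011 to 0.803 over the other settings, and the call was lost without the CR libraries (FDR 0.0545) or without the SR libraries (0.101).

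At an unadjusted p under 0.05 in edgeR, 8 members were lower and 3 higher (7.80% and 4.67% of all transcripts). The median log2 difference of the 49 was -0.15, beside -0.0062 over all transcripts tested. By step it was -0.25 for JAZ, -0.25 for MYC2, -0.15 for allene oxide synthase, -0.085 for allene oxide cyclase, -0.045 for OPDA reductase, -0.024 for COI1 and 0.066 for lipoxygenase. Next to MYC2a by FDR stood lox1 T01 (log2 difference 0.57, SE 0.12, FDR 0.061), TIFY27 (-0.68, SE 0.15, FDR 0.078) and bHLH137 (-0.89, SE 0.21, FDR 0.084), none of which passed in edgeR.

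**Figure D3:**
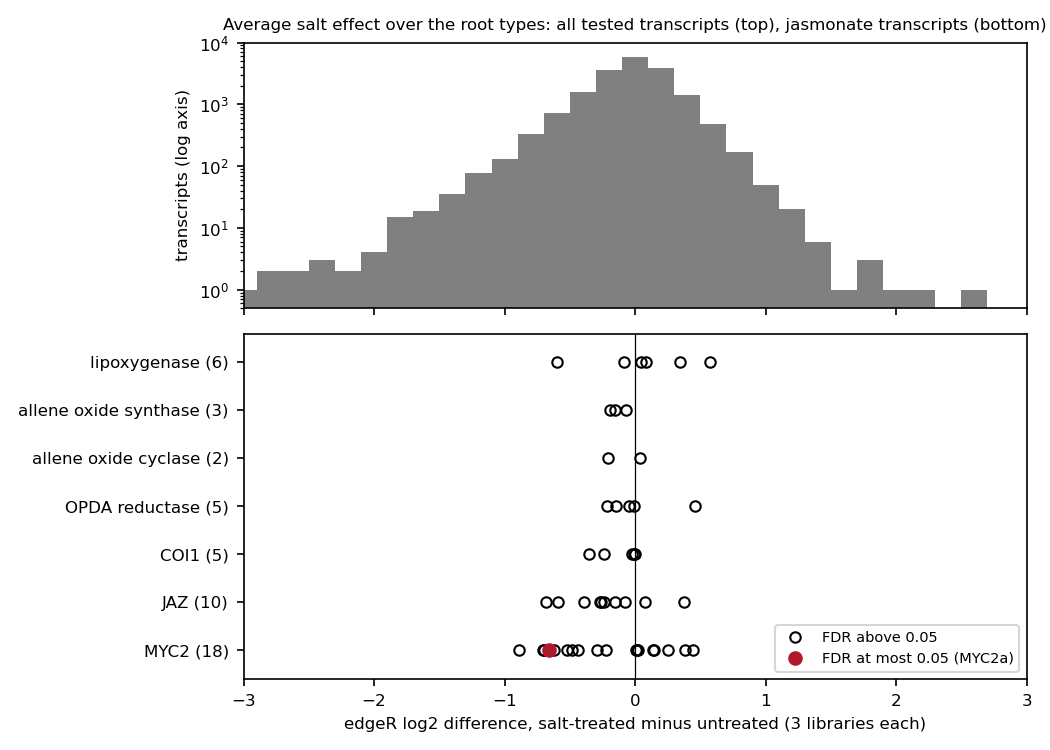
Average salt effect over the root types, with the edgeR log2 difference of salt-treated minus untreated libraries (3 each) on the x axis, for all tested transcripts (upper panel, number of transcripts on a log axis) and for the jasmonate transcripts by step (lower panel, 1 circle per transcript, numbers tested in parentheses). The filled circle is MYC2a at -0.66, the only member with an FDR of at most 0.05. The middle 90% of all transcripts run from -0.60 to 0.46, and the circles of the JAZ and MYC2 steps have medians of -0.25.

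The salt ratio was also compared between root types, with an exact conditional test on the reads of 4 libraries. A call needed an FDR no higher than 0.001 and log2 ratios that lay 1 or more apart once 1 read was added to each library. The test called 0 of 64 members between PR and CR, 0 of 63 between PR and SR and 0 of 62 between CR and SR, where 0.662%, 0.708% and 0.186% of all tested transcripts were called. Differences smaller than 1 were found for lox1. The ratio of T02 was lower in PR than in CR by a log2 difference of -0.43 (FDR 4.4e-08) and higher in CR than in SR by 0.49 (FDR 1.9e-08), and that of T01 was higher in CR than in SR by 0.68 (FDR 0.00027). For aos1 the differences were -0.41 for PR minus SR (FDR 0.020) and -0.41 for CR minus SR (FDR 0.017), for GRMZM2G125411 of the COI1 entry 0.51 for PR minus SR (FDR 0.0082), and for GRMZM2G035314 0.58 for PR minus CR (FDR 0.021). The exact test covers counting error only.

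Levels differed between root types for more members than they did with salt. The same held over all transcripts, of which 0.125% were higher and 0.488% lower in the average salt effect, fewer than in the contrast of PR. PR was set against the mean of CR and SR in the same edgeR fit, with 2 libraries per root type, 1 of them salt-treated. Of the 49 members, 3 were higher and 5 lower in PR at an FDR of at most 0.05 (3.78% and 3.22% of all transcripts), and 9 and 7 at an unadjusted p under 0.05 (9.36% and 8.69%). Nicotianamine synthase differed in the same direction as the 5 lower members (18.9 and 24.3 RPKM in the PR libraries, against 1981 to 6004 in the others), and its part in the result was not tested. Cyclin B was also lower in the PR libraries (59.6 RPKM in PR-salt and 47.3 in PR, against 71.6 to 91.5 in the others). LHCB1 was higher there (112 in PR-salt and 85.8 in PR, against 28.0 to 84.4), but PR lay only just above SR (84.4). The other shoot markers with reads did not follow LHCB1. LHCA1 was highest in SR (2.14) and the small subunit of Rubisco in CR-salt (6.16). The part of these markers in the result was likewise not tested. Plant age, too, differed between the root types.

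The member with the largest difference was the lipoxygenase GRMZM5G822593, which has no symbol in the table of names. It had an RPKM of 1.89 in PR-salt and 1.52 in PR, against 14.2 in CR-salt, 13.8 in CR, 13.7 in SR-salt and 13.2 in SR, on 10 to 13 reads in the PR libraries and 85 to 93 in the others. The groups did not overlap, and the log2 difference was -2.99 (SE 0.22, FDR 1.5e-05). GRMZM2G150327, of the MYC2 entry with a score of 80.5 bits, had 13.3 in PR-salt and 13.4 in PR, against 33.7 in CR-salt, 37.9 in CR, 55.3 in SR-salt and 67.3 in SR, a log2 difference of -1.80 (SE 0.17, FDR 9.8e-05). Its RPKM was also higher in the SR than in the CR libraries, which missed the threshold (log2 difference of CR minus SR -0.76, FDR 0.057).

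bHLH137 had an RPKM of 4.46 in PR-salt and 8.21 in PR, against 10.8 in CR-salt, 20.3 in CR, 11.1 in SR-salt and 19.4 in SR (log2 difference -1.27, SE 0.24, FDR 0.0080 in edgeR and 0.170 in DESeq2). bHLH94 had 19.6 in PR-salt and 28.7 in PR, against 34.8 in CR-salt, 45.7 in CR, 43.0 in SR-salt and 58.3 in SR (log2 difference -0.90, SE 0.14, FDR 0.0022). Both were thus lower in the PR libraries and lower in each salt-treated library than in its untreated one. GRMZM2G353209 of the COI1 entry had 38.4 in PR-salt and 35.8 in PR, against 48.1 to 60.6 in the CR and SR libraries, a log2 difference of -0.54 (SE 0.12, FDR 0.022). Its call was lost with DESeq2, without the CR library (FDR 0.073) and without the SR-salt library (0.072).

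The higher members came from the JAZ, MYC2 and lipoxygenase entries. TIFY27 of the JAZ entry had 58.8 in PR-salt and 87.4 in PR, against 19.6 to 40.9 RPKM in the CR and SR libraries, and its log2 difference was 1.22 (SE 0.15, FDR 0.00061). GRMZM2G061906 had 139 in PR-salt and 163 in PR, against 91.6 to 128 in the others (log2 difference 0.56, SE 0.13, FDR 0.021). lox1 T01 had 117 in PR-salt and 78.6 in PR, against 121 in CR-salt, 63.2 in CR, 58.4 in SR-salt and 48.7 in SR, so that the groups overlapped, and its log2 difference was 0.48 (SE 0.12, FDR 0.037). DESeq2 called neither lox1 T01 nor GRMZM2G061906. The call of lox1 T01 was also lost without the CR library (FDR 0.085 in edgeR) or the SR-salt library (0.121), and that of GRMZM2G061906 without the PR library (0.233) or the CR library (0.062).

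CR was higher than SR for both transcripts of lox1 and lower for 0 members (0.331% and 0.770% of all transcripts), with 5 members higher and 5 lower at an unadjusted p under 0.05 in edgeR (4.98% and 6.78%) and 1 higher and 0 lower in DESeq2. For T02 the RPKM was 374 in CR-salt and 280 in CR, against 173 in SR-salt and 181 in SR, a log2 difference of 0.89 (SE 0.13, FDR 0.0073). For T01 the log2 difference was 0.75 (SE 0.15, FDR 0.041), and without the SR-salt library neither passed (FDR 0.079 for T02 and 0.382 for T01 in edgeR). T01 also failed without the CR-salt library (FDR 0.282) and with DESeq2.

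**Figure D4:**
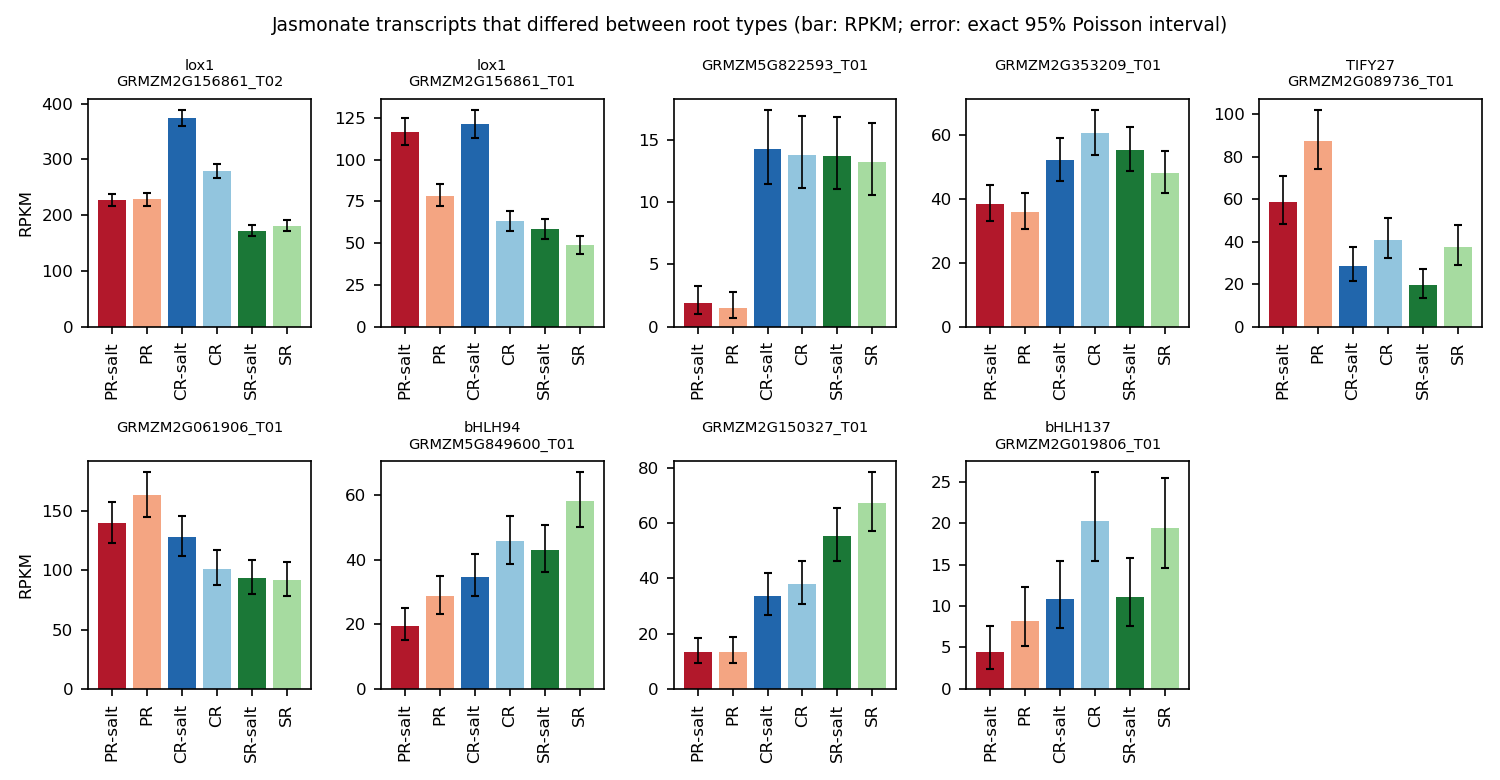
RPKM (y axis, starting at 0, scale set for each panel) in the 6 libraries (x axis) of the 9 jasmonate transcripts whose level differed between root types. A bar is 1 library and its error the exact 95% Poisson interval of the reads. GRMZM5G822593 stands at 1.52 to 1.89 RPKM in the PR libraries and at 13.2 to 14.2 in the others, TIFY27 is highest in PR at 87.4, and T02 of lox1 is highest in CR-salt at 374.

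Other enzymes of the pathway and of related branches were counted by the same tests. The list held 80 transcripts annotated as phospholipase A1, 9-lipoxygenase, OPC-8:0 CoA ligase, the beta-oxidation enzymes, jasmonate O-methyltransferase, alpha-dioxygenase or JAR1. Not all of these make jasmonate, since a 9-lipoxygenase lies outside that branch. Of the 64 tested in SR 1 was a DTG (0.392% of all transcripts), and 0 of 71 were in PR (0.519%) and 0 of 64 in CR (0.369%). That transcript, GRMZM2G010731, annotated as jasmonate O-methyltransferase, which makes the volatile methyl ester, had 46 reads in PR-salt and 31 in PR, 72 in CR-salt and 105 in CR, and 30 in SR-salt and 80 in SR (log2 ratio in SR -1.44, interval -2.10 to -0.82, FDR 9.3e-05). In the average salt effect 1 of 32 tested fell and 0 rose in edgeR (0.488% and 0.125% of all transcripts), with 5 lower and 4 higher at an unadjusted p under 0.05 (7.80% and 4.67%). The transcript that fell was GRMZM2G097704, annotated as phospholipase A1, the kind of enzyme that releases the fatty acid precursor, with 56 reads in PR-salt and 91 in PR, 40 in CR-salt and 73 in CR, and 54 in SR-salt and 93 in SR (log2 difference -0.83, SE 0.15, FDR 0.043 in edgeR and 0.630 in DESeq2). Without the CR libraries its FDR in edgeR was 0.114 and without the SR libraries 0.132. The test of differing salt ratios called 1 transcript, GRMZM2G321290, also annotated as phospholipase A1, whose log2 ratio was -0.995 in PR and 1.13 in SR.

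Between root types 2 of the 32 were higher and 1 was lower in PR (3.78% and 3.22% of all transcripts), counts that lie near the background. lox3, a 9-lipoxygenase, had 1150 reads in PR-salt and 941 in PR, against 578 in CR-salt, 385 in CR, 607 in SR-salt and 442 in SR (log2 difference 1.04, SE 0.10, FDR 7.5e-05), and its salt-treated library was the higher of each pair, with log2 ratios of 0.23 in PR (interval 0.11 to 0.36), 0.63 in CR (0.44 to 0.82) and 0.43 in SR (0.25 to 0.61). In every library the reads of lox3 covered only 21.04% to 21.08% of its transcript, so they come from a small stretch of it. Of the beta-oxidation enzymes, GRMZM2G117357 (MFP2) was higher in PR by a log2 difference of 0.71 (SE 0.14, FDR 0.012) and the acyl-CoA oxidase GRMZM2G014136 was lower by -0.33 (SE 0.09, FDR 0.041), and DESeq2 called neither. The call of GRMZM2G117357 was lost without the PR-salt library (FDR 0.060 in edgeR), and that of GRMZM2G014136 without any 1 of the 6 libraries.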

How the data were processed

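RNA-seq of 6 libraries, 1 per condition, was analysed. After removal of adaptors and low-quality reads, the authors mapped the rest to B73 RefGen_V2 with SOAP and assigned them to genes with BLAST. The count in the deposited table is the number of uniquely aligned reads per transcript and is not normalized. The deposited RPKM divides it by the transcript length and the counted reads of the library, and was recomputed here to within 1.7e-06. The deposited percent of each transcript covered by reads was used only to describe lox1 and lox3. Library preparation is described as using random primers, and no use of strand in counting is given in the sources used here. No sample column was left out (0 columns), and there were no rows without a gene.

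The members, the gene lists and the tests were chosen with earlier results of these data known. Named were members called in any test and the 3 most abundant of each entry with at least 10 reads in a library, and of the other listed enzymes those called in any test. DTGs were called as in the study, with Benjamini-Hochberg adjustment over transcripts with a read in either library and an RPKM of 0 set to 0.01. Intervals of log2 ratios are Clopper-Pearson intervals of the reads, and those of RPKM are Poisson intervals, both at 95%. Molecular identifiers are not mentioned in the sources used here, so they cover counting error only. Differences between root types were tested at 20 or more reads in the 4 libraries. edgeR 4.0.16 (TMM, root type and salt as terms, 2 residual degrees of freedom) and, as an alternative, DESeq2 1.42.0 were fitted in R 4.3.3. Both took the 18444 transcripts with at least 10 reads in 3 or more libraries. No label says that the libraries of different root types are replicates. Each edgeR p-value sets its contrast against the residual spread of the fit, which includes the differences of the salt effect between root types. Other steps ran in Python 3.11.15 with scipy 1.17.1, pandas 2.3.3, numpy 2.4.6 and matplotlib 3.10.9. The test of Audic and Claverie and that of differing salt ratios were tried on simulated data with known changes. So was the edgeR test of the average salt effect, and the other tests were not. Gene names come from RefSeq (Zm-B73-REFERENCE-NAM-5.0), matched by identifier for 86 of 138 transcripts. It is another build than B73 RefGen_V2, so no coordinates or sequences are given. Alternatives were other tests, scalings, thresholds, filters, reads summed to genes and left-out libraries.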

Additional observations from a re-analysis of the deposited data

Results flagged for a closer look

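GRMZM2G321290, annotated as phospholipase A1 and outside the 138 transcripts, differed in its salt ratio between PR and SR by the exact conditional test on the reads of 4 libraries. Its reads were 35 in PR-salt and 67 in PR, 60 in CR-salt and 50 in CR, and 67 in SR-salt and 30 in SR. The log2 ratio was -0.995 in PR (interval -1.63 to -0.38) and 1.13 in SR (0.49 to 1.80), a difference of -2.08 for PR minus SR (FDR 0.00010), on 1 library per condition.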

How the results depend on the processing

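With 1 library per condition, the pair tests cover counting error only. With an FDR of at most 0.05 the members called in SR were 2, not 0, 1 higher and 1 lower, and all other settings tried left 0 in each root type. The average salt effect gave 1 call in edgeR, 0 with DESeq2, 0 at an FDR of at most 0.01, 5 (1 higher, 4 lower) without the filter on low counts, and 0 to 6 with 1 root type left out (6 without PR, 0 without CR, and 1 without SR, where it was higher and not MYC2a). The root type is the only block that could be fitted, since all libraries carry the same replicate number. With no replicate block, that is without the root type term, 0 members and 0 of all transcripts were called. For PR against the mean of CR and SR, 8 members were called in edgeR, 4 with DESeq2, 13 without the filter, 5 at an FDR of at most 0.01, and 6 to 12 with 1 library left out (12 without PR-salt, 6 without CR). For CR against SR, 2 were called, 1 with DESeq2, 1 at an FDR of at most 0.01, and 0 to 7 with 1 library left out (7 without PR-salt or PR, 1 without CR-salt, 0 without SR-salt). Leaving out single libraries in these contrasts was chosen after seeing the data. Without a minimum difference, 1 member differed in its salt ratio between PR and CR and 2 between CR and SR. No setting tried turned the direction of a called value. Of the single values under other settings, 824 stayed the same. A salt ratio then stayed within its counting interval, and a fitted value kept its side of the FDR threshold, whether called or not. Of the rest, 24 gained a call, 39 lost it and 5 moved out of their interval, all 5 for lox1 with reads summed to the gene. The cause was not tested. Depth limits the 75 transcripts that stayed under 10 reads.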
